A study of Mus musculus with 14 samples.

Results

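The genes described are 41 mouse genes that type I interferon is known to induce, taken by symbol from 55335 gene rows in each of 2 count tables. Each of the 41 symbols matched 1 row in both tables, and all 41 passed the filter on low counts in both. RNA came from intestinal stem cells sorted by FACS for the EGFP that marks Lgr5-expressing cells. In the Chrm3 experiment every mouse was Lgr5CreERT2-IRES-GFP; Chrm3flox/flox, so the control mice carried the Cre and the floxed alleles too. The groups labelled WT received vehicle and those labelled KO received TAM, which activates the Cre in Lgr5-expressing cells, for 3 days before the step named ES. The labels do not spell out ES or NT, and the series title speaks of chronic stress. Each of the groups WT NT, KO NT, WT ES and KO ES had n = 2 libraries. In the ageing experiment Lgr5CreERT2-IRES-GFP mice were young (2 months) or old (18 months), with n = 3 libraries each.

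Type I interferons are secreted when a cell senses viral or misplaced nucleic acid. They bind the receptor made of Ifnar1 and Ifnar2, whose kinases Jak1 and Tyk2 phosphorylate Stat2. Stat2 and Irf9 are part of a complex that binds the interferon-stimulated response element and switches on genes that sense RNA, block translation, tag proteins or degrade RNA. In the gut epithelium interferon lambda acts through a different receptor on the same transcription complex, so the induced genes do not tell which interferon acted.

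The libraries held 26683563 to 36882310 counts, and mitochondrial genes took 6.12% to 8.74% of them, most in KO NT 2. Chrm3, the floxed gene, was still counted in the KO libraries (213 to 343 raw counts, against 291 to 386 in WT). The highest KO count was in KO NT 1, the deepest library, and the lowest WT count in WT ES 2, the shallowest. Overlap of these raw ranges therefore does not show that levels overlapped. Relative to the library's total counts, Chrm3 was lower in every KO library than in every WT library. The nearest were KO NT 1 (343 of 36882310 counts) and WT ES 2 (291 of 26683563 counts). The size of this difference was not tested. Whether the counts fall on the floxed exons was not tested. Levels are given as CPM, a gene's count scaled to the size of its library, after TMM scaling within each experiment, so a level in one is not set against a level in the other. The stem cell list, which includes Lgr5 and Olfm4, summed to 10681 CPM or more in every library. Fibroblast and endothelial markers summed to at most 0.96 CPM and B and plasma cell markers to at most 4.48 CPM. Other lists were higher, with Paneth cell markers at 6655 to 10706 CPM and goblet cell markers at 2382 to 9646 CPM. T cell and intraepithelial lymphocyte markers summed to 35.5 to 214 CPM and myeloid markers to 36.1 to 97.1 CPM. Sums of unlike lists do not give shares of cells.

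The response element has the core GAAANNGAAA, and its place relative to the gene start was read from RefSeq promoters (GRCm38.p6, 250 bases before to 50 after the start). Of the 41 genes, 31 had such a window, and 16 of the 31 (51.6%) held the core on either strand. Among all 27025 genes with a window the share was 3.99%. The GAS core TTCNNNGAA, a sequence known from interferon gamma responses, was in 7 of 31 (22.6%), against 9.55% of all genes. A match is a description of letters and not a site shown to be bound. The 2 cores overlapped in 1 member. The stretches below belong to the genes that passed a test in at least 1 comparison and hold a core, with Isg15 added because it holds 3 cores. They run 5′ to 3′ on the gene's strand, with the matching bases in capitals (on the opposite strand the core reads TTTCNNTTTC).
Oas1a (chr5:120907523-120907552, minus strand): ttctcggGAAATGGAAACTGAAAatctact
Oas1g (chr5:120887609-120887638, minus strand): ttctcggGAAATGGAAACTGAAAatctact
Oas3 (chr5:120777715-120777744, minus strand): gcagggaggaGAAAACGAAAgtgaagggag
Ifit1 (chr19:34640784-34640813, plus strand): gTTTCACTTTCcagtctcagTTTCAGTTTC
Ifit1bl1 (chr19:34602053-34602082, minus strand): actctgtaggTTTCATTTTCtgtaggttgg
Trim30a (chr7:104465210-104465239, minus strand): agttctttagTTTCTTTTTCtcagttcctg
Isg15 (chr4:156200871-156200900, minus strand): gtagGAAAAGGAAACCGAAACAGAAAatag

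Oas1a and Oas1g carried the same 30 bases, with cores 20 and 18 bases before their starts. On chromosome 5 Oasl1 and Oasl2 lie apart from the rest of the OAS family, from Oasl2 (start 114896936) to Oasl1 (end 114937915). The other OAS genes lie together there, from Oas2 (start 120730333) to Oas1a (end 120907521). The Ifit genes lie on chromosome 19, from Ifit2 (start 34550694) to Ifit1 (end 34650009). Exons within these families are partly alike: 57.6% of the 50-base words of Oas1a and 51.2% of those of Ifit3 also occur in another gene, in the main Oas1g and Ifit3b. Counts of Oas1a, Oas1g, Ifit3 and Ifit3b may therefore be split between copies, and are uncertain. Exons of 14 members overlap another gene, 3 on the same strand and 11 on the opposite strand. The longest overlap is that of Rnf213 with A930037H05Rik, 1476 bases on opposite strands. Dtx3l and Parp9 overlap by 458 bases on opposite strands. The sources used here do not say how strand was used in counting.

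Per kilobase of exon, and ranked by the mean over all groups of an experiment, the most abundant of the 41 was Lgals3bp, a secreted glycoprotein that binds galectins, at 90 to 97.8 CPM per kb over the 4 Chrm3 groups, and at 134 in young and 110 in old. Irf1, a transcription factor that also answers to interferon gamma, was next at 31.0 to 39.2 CPM per kb in the Chrm3 groups and 33.6 and 39.1 in young and old. Next came Eif2ak2 in the Chrm3 experiment (17.5 to 19.2 CPM per kb) and Oas1a in the ageing experiment (36 in young, 24.2 in old). In young alone Oas1a stood above Irf1. Eif2ak2 encodes PKR, the kinase that stops translation when it binds double-stranded RNA. In the libraries of the Chrm3 experiment Eif2ak2 was at 97.9 and 98.6 CPM in KO ES, 88.9 and 90 in KO NT, 90 and 89.7 in WT ES, and 88.1 and 94.2 in WT NT. These values stayed within a narrow band. The lowest level per kb was that of Mx1, at 0.164 CPM per kb over the Chrm3 experiment, where its library counts ran from 8 to 41, and Ifit3b went down to 3 counts.

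**Figure D1:**
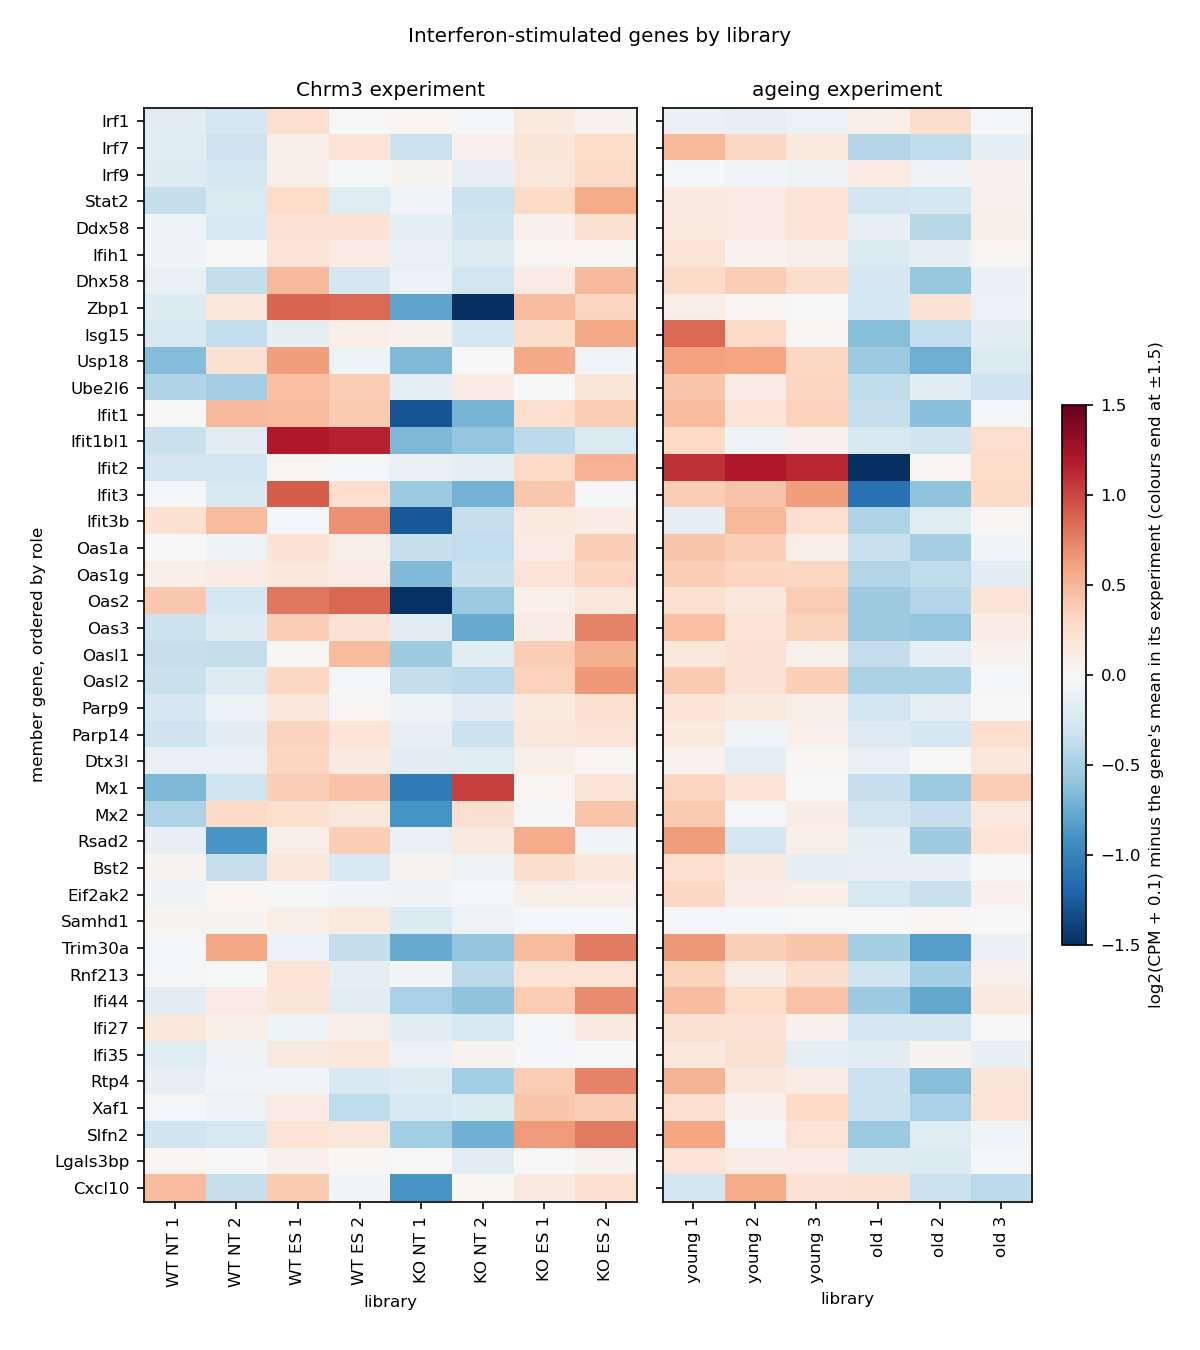
Each cell is log2(CPM + 0.1) of 1 gene (rows, ordered by role) in 1 library (columns), minus the gene's mean in its experiment, with colours ending at 1.5 on either side. Most rows are redder in the ES than in the NT libraries and bluer in the old than in the young libraries, with old 3 paler than old 1 and old 2.

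The mean log2 CPM over the 41 genes was 3.37 and 3.25 in WT ES, against 2.97 and 3.00 in WT NT. It was 3.31 and 3.39 in KO ES, against 2.71 and 2.84 in KO NT. Both ES groups lay above both NT groups, and KO NT was lowest. In the ageing experiment it was 4.78, 4.66 and 4.66 in young and 4.07, 4.15 and 4.50 in old. The groups did not overlap, and old 3 lay nearest to young. Over all genes tested the same mean was 3.27 to 3.33 in the Chrm3 libraries and 3.50 to 3.54 in the ageing libraries.

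**Figure D2:**
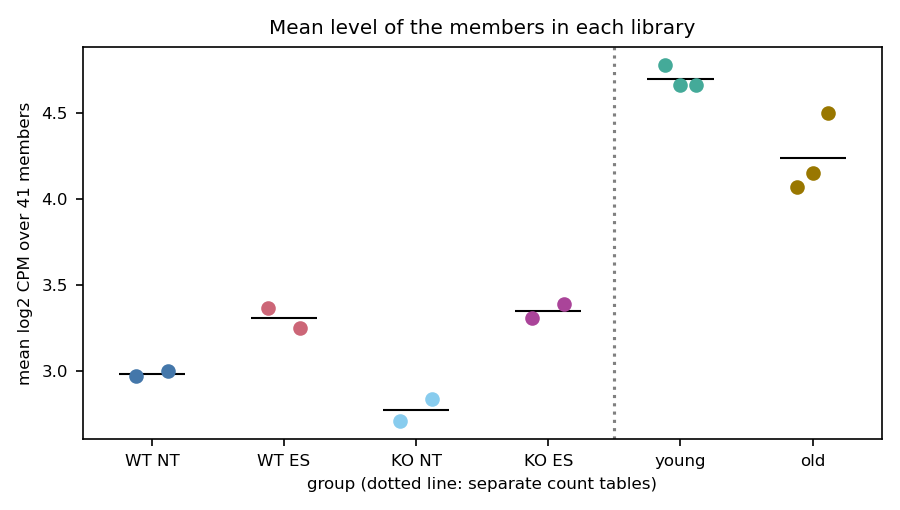
Each point is 1 library, placed by the mean log2 CPM of the 41 genes (vertical axis) in its group (horizontal axis), and the line is the group mean. With ES the group means were 3.31 (WT) and 3.35 (KO), against 2.98 and 2.77 without it, and they were 4.70 in young and 4.24 in old. Levels on either side of the dotted line come from separately scaled tables.

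The first comparison was ES against NT in WT mice. Of the 41 genes 5 rose and 0 fell, and the fold changes of 35 were above 0 (49.3% of all genes were). Those that rose were Ifit1bl1, Ube2l6, Parp14, Dtx3l and Irf1. Of all 17364 genes tested, 3.5% passed, 2.11% upward and 1.39% downward. The median log2 fold change of the 41 was 0.29, and that of all genes tested was -0.00. Both ES libraries lay above both NT libraries for 25 of the 41, and for 26% of all genes the groups were separated in that direction.

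Ifit1bl1, a member of the IFIT family, was at 2.83 and 3.19 CPM in WT NT and 8.35 and 8.12 in WT ES, a log2 fold change of 1.45 ± 0.17 (SE, adjusted p = 0.00273, edgeR quasi-likelihood test with Benjamini-Hochberg adjustment over all genes). Both WT ES libraries were far above every other library of the Chrm3 experiment, the highest of which was at 3.19 CPM. Ube2l6, which encodes the enzyme that carries ISG15 to its targets, went from 4.62 and 4.40 CPM to 8.74 and 8.34 (log2 fold change 0.92 ± 0.16, adjusted p = 0.0159). The ES libraries lay clear of the NT libraries. Parp14, an ADP-ribosyltransferase, went from 41.1 and 45.6 CPM to 65.2 and 58.9 (0.52 ± 0.09, adjusted p = 0.0158). Dtx3l, a ubiquitin ligase that pairs with Parp9, went from 63.3 and 63.5 to 85.3 and 75.2 CPM (0.34 ± 0.07, adjusted p = 0.0351). Irf1 went from 127 and 119 to 169 and 143 CPM (0.34 ± 0.08, adjusted p = 0.0496). For Parp14, Dtx3l and Irf1 the higher ES library was WT ES 1. The Irf1 call held in 8 of 16 other settings and was lost in limma-voom. Without WT NT replicate 1 or WT NT replicate 2 no member passed (0 each), and without WT ES replicate 1 there was 1. In those fits 0.223%, 0.125% and 0.555% of all genes passed.

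By role, 2 of 3 ADP-ribosylation genes, 1 of 3 genes of the ISG15 system, 1 of 5 IFIT genes and 1 of 4 transcription factors rose. No RNA sensor (0 of 4) and no OAS gene (0 of 6) passed. Their fold changes were nonetheless above 0 in all 4 and all 6, with medians of 0.39 and 0.49. The remaining groups, antiviral effectors such as Mx1 and Eif2ak2 (8 genes) and other induced genes such as Ifi44 and Xaf1 (8 genes), had medians of 0.11 and 0.04.

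In the same WT libraries other cell markers moved. The 6 goblet cell markers summed to 4700 to 4808 CPM in WT NT and 9416 to 9646 in WT ES, and all 6 rose. The 6 stem cell markers summed to 13623 to 13927 CPM in WT NT and 10681 to 11042 in WT ES, and all 6 fell. The 10 myeloid markers summed to 59.8 to 65.4 CPM in WT NT and 80.2 to 82.3 in WT ES, none of 4 tested passed, and C1qb and C1qc were at 0 in both groups. Most of these sums was Lyz2 alone, at 51.1 and 50.9 CPM in WT NT and 66.1 and 61.7 in WT ES. T cell and intraepithelial lymphocyte markers summed to 68.5 to 72 CPM and 70.9 to 72.5. Enterocyte markers summed to 675 to 682 CPM in WT NT and 1006 to 1305 in WT ES (2 of 8 rose, and all 8 were higher in both ES libraries). Enteroendocrine markers summed to 131 to 144 and 230 to 236 CPM (3 of 5 rose), and 2 of 6 Paneth cell markers rose. The part of these shifts in the interferon gene results was not tested. In bulk RNA, fewer cells of a type and less RNA per cell cannot be told apart.

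The second comparison was ES against NT in KO mice. Again 5 of the 41 rose and 0 fell, and 40 fold changes were above 0 (49.3% over all genes). The risers were Zbp1, Slfn2, Oasl2, Oas1g and Oas1a. Of all genes tested 0.513% passed, 0.415% upward and 0.0979% downward. The median of the 41 was 0.51, against -0.00 over all genes. Both KO ES libraries lay above both KO NT libraries for 34 of the 41, and for 17.1% of all genes.

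Zbp1, a sensor of nucleic acid in the Z form that can trigger cell death, was at 3.90 and 3.49 CPM in KO ES, against 1.56 and 0.789 in KO NT (log2 fold change 1.62 ± 0.30, adjusted p = 0.0448). Slfn2, of the Schlafen family, went from 2.32 and 2.00 to 5.27 and 5.82 CPM (1.36 ± 0.19, adjusted p = 0.0182). In both, the ES libraries were well above the NT libraries. The OAS proteins bind double-stranded RNA, and most of them make the short oligoadenylates that activate RNase L. Oasl2 went from 21.8 and 21.4 to 35.7 and 44.1 CPM (0.89 ± 0.13, adjusted p = 0.0199). Oas1g went from 5.41 and 6.80 to 9.90 and 10.8 CPM (0.77 ± 0.14, adjusted p = 0.0492). Oas1a went from 16.9 and 16.7 to 23.6 and 27.9 CPM (0.62 ± 0.10, adjusted p = 0.0308). KO ES 2 was the higher ES library for all 3. The calls of Zbp1 and Oas1g each held in only 5 of 16 other settings. Both were lost in limma-voom and with only the KO groups in the fit. Across the 41, KO ES 2 held the highest value of the Chrm3 experiment for 19 genes, and KO NT 1 and KO NT 2 the lowest for 13 and 15.

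Of the OAS family 3 of 6 rose, all 6 fold changes were above 0, and the median was 0.85. Of the RNA sensors 1 of 4 rose, and of the other induced genes 1 of 8. No IFIT gene passed (0 of 5), with a median of 0.92. The lone gene below 0 was Mx1 at -0.19 on the log2 scale, whose KO NT libraries were at 0.215 and 1.24 CPM and lay far apart. In limma-voom and without KO NT replicate 2 all 41 fold changes were above 0. The count was 0 without KO ES replicate 2 or either WT NT library (replicate 1 or 2), 2 without KO ES replicate 1 or WT ES replicate 1, and 3 without KO NT replicate 2 or WT ES replicate 2, in fits that share 1 estimate of the spread over the 4 groups. Of all genes 0.06% to 0.722% passed in those fits. With only the 2 KO groups in the fit 1 member passed (0.143% of all genes), and DESeq2 gave 11 (1.3%). Leaving out Ifit3, Ifit3b, Oas1a and Oas1g, 3 of 37 members rose.

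Goblet cell markers were also higher with ES in KO mice, 2382 to 2498 CPM in KO NT and 4105 to 4151 in KO ES (6 of 6 rose). Myeloid markers summed to 58.4 to 72.2 and 84.3 to 88.2 CPM, but only Lyz2 of the 4 tested was above 0 and rose. The other 3 were below 0, the median was -0.34, and Adgre1 was at 0 in both groups. T cell and intraepithelial lymphocyte markers summed to 54.5 to 66.1 CPM in KO NT and 62.3 to 78.8 in KO ES, with 0 of 11 passing. Enterocyte markers summed to 633 to 1099 CPM in KO NT and 506 to 631 in KO ES, all 8 were below 0 (median -1.20), and 3 fell. Of the Paneth cell markers 2 of 6 rose, and all 6 were higher in both ES libraries. The part of these shifts in the result was not tested.

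**Figure D3:**
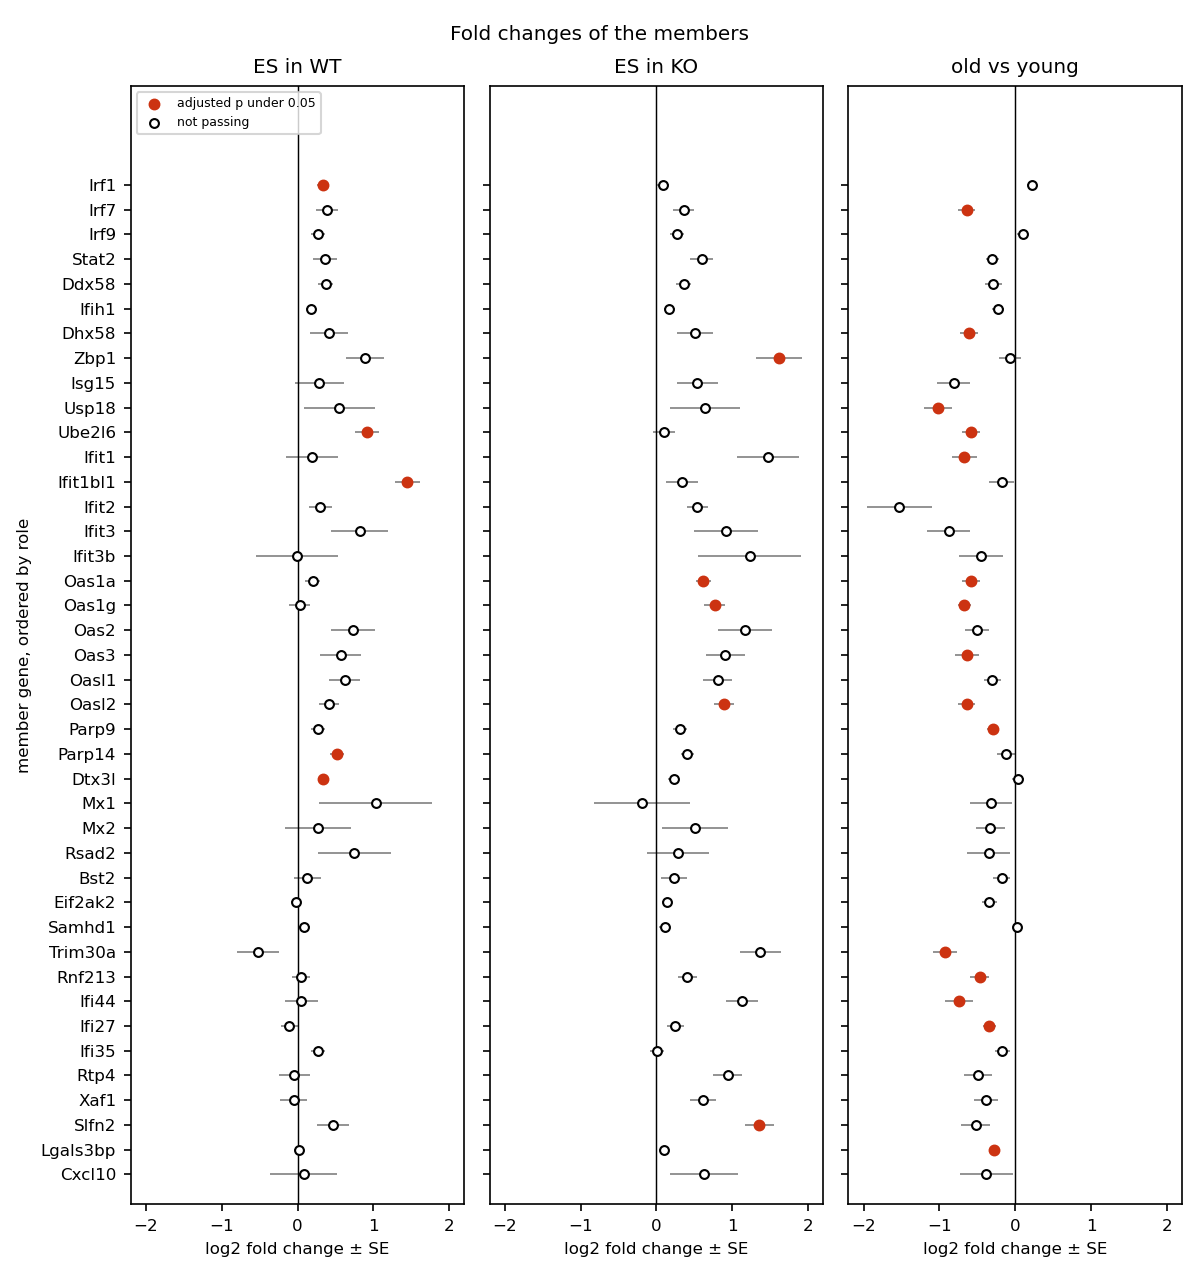
Each point is the log2 fold change of 1 of the 41 genes with its SE, for the ES effect in WT, the ES effect in KO, and age. Filled points passed at an adjusted p under 0.05. Filled points lie to the right of 0 in the first and second panels (5 genes each) and to the left in the third (15 genes).

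The lists of risers in WT and in KO shared no gene, but this does not show that the responses differed. Subtracting the ES effect in WT from that in KO, within the same edgeR fit, gave a difference that passed for 0 of 41 members (0.109% of all genes passed). At an unadjusted p under 0.05 there were 12 members, and 11.5% of all genes. limma-voom gave 0 and DESeq2 gave 1, Trim30a. The median of the difference was 0.19, and 29 of 41 values were above 0 (51.7% over all genes).

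Trim30a, a TRIM protein that restrains Toll-like receptor signalling, had the smallest p. It was at 3.75 and 4.65 CPM in KO ES against 1.54 and 1.73 in KO NT, and at 2.50 and 2.06 in WT ES against 2.61 and 4.03 in WT NT. The WT ES libraries were below WT NT and the KO ES libraries above KO NT. The difference was 1.90 ± 0.39 on the log2 scale (adjusted p = 0.118, and 0.0141 with DESeq2). For Ifit1bl1, at 2.70 and 3.06 CPM in KO ES against 2.21 and 2.37 in KO NT, the difference was -1.12 ± 0.28 (adjusted p = 0.159). For Oas1g, at 9.17 and 9.44 CPM in WT NT and 9.62 and 9.39 in WT ES, it was 0.73 ± 0.20 (adjusted p = 0.192). The Oas1g values in WT were level between NT and ES.

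KO against WT was then compared within each condition. These comparisons share libraries with those above and with the difference, so they are not separate evidence. KO mice received TAM and WT mice vehicle. An effect of TAM and one of the loss of Chrm3 therefore cannot be told apart here or in the difference. Among NT libraries 1 of 41 members fell and 0 rose, with 4.46% of all genes passing, 2.36% upward and 2.1% downward. The gene was Oas1g, at 5.41 and 6.80 CPM in KO and 9.17 and 9.44 in WT (log2 fold change -0.61 ± 0.15, adjusted p = 0.0402). Its KO libraries were both below the WT libraries, but the call was lost in limma-voom and without any single library except KO NT replicate 2 (adjusted p up to 0.233). The median of the 41 was -0.13, and 26 were below 0 (52.2% over all genes). Between the same libraries goblet cell markers (2382 to 2498 CPM in KO NT, 4700 to 4808 in WT NT, 6 of 6 fell) and tuft cell markers (22 to 29.5 and 58 to 60.3 CPM, 4 of 4 fell) differed, and their part was not tested.

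Among ES libraries 1 member rose and 1 fell, with 7.52% of all genes passing, 3.07% upward and 4.45% downward, and the median was 0.06. Ifit1bl1 was at 2.70 and 3.06 CPM in KO ES and 8.35 and 8.12 in WT ES (-1.51 ± 0.17, adjusted p = 0.00067), and the call held in all 16 other settings. Rtp4, an interferon-induced receptor-transporting protein, was at 6.79 and 8.74 CPM in KO ES and 5.04 and 4.42 in WT ES (0.72 ± 0.19, adjusted p = 0.0434). The KO libraries were higher, and 11.6% of the 50-base words of Rtp4 are shared with the overlapping gene model Gm45338. The Rtp4 call was lost without KO ES replicate 2 or any 1 of the 4 WT libraries (adjusted p up to 0.273). Enterocyte markers (506 to 631 CPM in KO ES, 1006 to 1305 in WT ES, 7 of 8 fell), goblet cell markers (6 of 6 fell) and enteroendocrine markers (4 of 5 fell) differed between the same libraries, and their part was not tested.

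**Figure D4:**
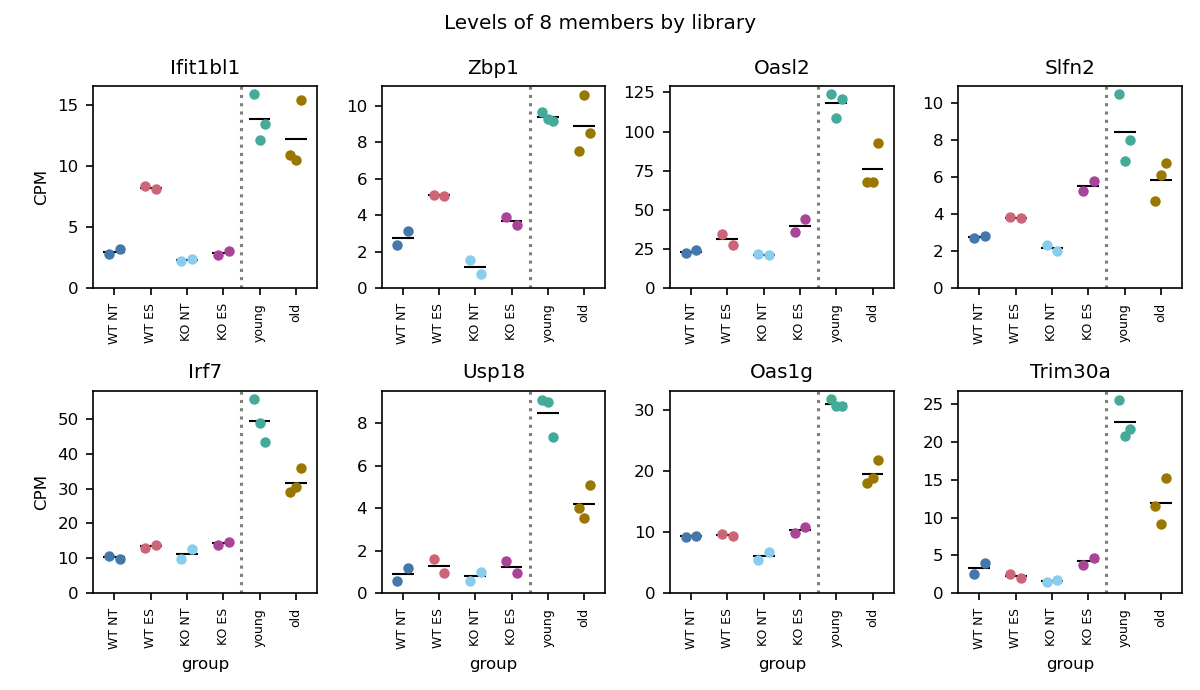
Each panel shows 1 gene, each point the CPM of 1 library and each line a group mean, with the Chrm3 groups left of the dotted line and the separately scaled ageing groups right of it. Ifit1bl1 stands at 8.35 and 8.12 CPM in WT ES and at most at 3.19 CPM in the other Chrm3 libraries, and Usp18, Irf7, Oas1g and Trim30a are lower in every old than in every young library.

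The last comparison was old against young. Of the 41 genes 15 fell and 0 rose, and 37 fold changes were below 0 (50.2% over all genes). Of all 16807 genes tested 7.84% passed, 4.42% upward and 3.42% downward. The median was -0.38, against -0.00 over all genes. For 24 of the 41 every old library lay below every young library, as it did for 13.2% of all genes. For 2, Irf1 and Samhd1, every old library lay above, also as for 13.2% of all genes.

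Of the transcription factors, Irf7, the main switch for transcription of the interferon genes, fell (1 of 4). It was at 55.7, 48.8 and 43.4 CPM in young and 29.0, 30.3 and 35.8 in old (-0.64 ± 0.11, adjusted p = 0.00412). Irf1 was at 134, 132 and 135 CPM in young and 153, 173 and 141 in old (0.22 ± 0.07, adjusted p = 0.0986) and did not pass. Of the RNA sensors 1 of 4 fell. Dhx58, which encodes LGP2, a regulator of the RNA sensors RIG-I and MDA5, was at 18.8, 20 and 18.5 CPM in young and 13.0, 10.4 and 14.4 in old (-0.61 ± 0.12, adjusted p = 0.0112). Its old libraries were all lower than its young ones.

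In the ISG15 system 2 of 3 fell. Usp18 removes ISG15 from proteins and dampens the interferon receptor. It was at 9.10, 9.01 and 7.36 CPM in young and 4.01, 3.53 and 5.10 in old (-1.02 ± 0.18, adjusted p = 0.00502). Ube2l6 was at 17.9, 14.7 and 16.8 CPM in young and 10.3, 12 and 10.8 in old (-0.58 ± 0.12, adjusted p = 0.0111). Neither gene's groups overlapped. Isg15 itself, the ubiquitin-like modifier, was at 13.2, 8.90 and 7.33 CPM in young and 4.64, 5.59 and 6.50 in old (-0.81 ± 0.22, adjusted p = 0.0518). It did not pass, and young 1 stood above the other young libraries. It passed in 4 of 13 other settings (DESeq2, the replicate block, and without young replicate 3 or old replicate 3), and over all 13 its log2 fold change ran from -0.98 to -0.54.

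In the OAS family 4 of 6 fell, all 6 were below 0, and the median was -0.61. Oas1g was at 31.8, 30.7 and 30.6 CPM in young and 18.1, 18.8 and 21.8 in old (-0.67 ± 0.09, adjusted p = 0.00111). Oasl2 was at 124, 109 and 121 CPM in young and 67.7, 67.6 and 92.8 in old (-0.64 ± 0.11, adjusted p = 0.00522). In both the young libraries were close together and old 3 was the highest of the old. Oas3 was at 34.3, 28.9 and 31.6 CPM in young and 17.2, 16.7 and 26.9 in old (-0.64 ± 0.16, adjusted p = 0.0296). Oas1a was at 74.0, 70.7 and 59.2 CPM in young and 43.9, 39.0 and 53.7 in old (-0.58 ± 0.12, adjusted p = 0.0112). No old library of either gene reached a young one. Without the uncertain copies Ifit3, Ifit3b, Oas1a and Oas1g, 13 of 37 members fell.

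Among the IFIT genes, whose proteins bind foreign RNA and block its translation, 1 of 5 fell and all 5 were below 0. Ifit1 was at 8.95, 7.36 and 8.23 CPM in young and 5.03, 4.12 and 6.28 in old (-0.67 ± 0.17, adjusted p = 0.0384). Ifit2 had the lowest fold change of the 41. It was at 19.4, 21.1 and 20.1 CPM in young and 0.603, 9.34 and 11.1 in old, where old 1 held only 20 counts (-1.53 ± 0.43, adjusted p = 0.0555). Old 1 stood far below the other old libraries, and without it the value was -0.99 ± 0.12 (adjusted p = 0.00311). Isg15 and Ifit2 were named after their values were seen.

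Of the antiviral effectors 2 of 8 fell. Trim30a was at 25.6, 20.8 and 21.8 CPM in young and 11.5, 9.14 and 15.2 in old (-0.93 ± 0.16, adjusted p = 0.00471). Rnf213, a very large ubiquitin ligase, was at 590, 505 and 555 CPM in young and 376, 325 and 489 in old (-0.47 ± 0.12, adjusted p = 0.0381, and not passing in DESeq2). Old 3 came within a short distance of young 2 for Rnf213. Eif2ak2 was at 138, 120 and 119 CPM in young and 94.0, 88.6 and 116 in old (-0.34 ± 0.10, adjusted p = 0.0602) and did not pass.

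In the ADP-ribosylation group Parp9, which recognises ADP-ribose and works with Dtx3l, fell (1 of 3). It was at 74.7, 72.4 and 69.0 CPM in young and 53.4, 59.4 and 64.7 in old (-0.29 ± 0.08, adjusted p = 0.0439). Among the other induced genes 3 of 8 fell. Ifi44 was at 40.2, 35.4 and 39.3 CPM in young and 20, 17.1 and 31.9 in old (-0.74 ± 0.18, adjusted p = 0.0267, and not passing in DESeq2). Its old 3 was the one old library near the young range. Ifi27 was at 35.2, 34.9 and 31.4 CPM in young and 25.3, 25.1 and 29.9 in old (-0.34 ± 0.09, adjusted p = 0.0444). Lgals3bp was at 398, 374 and 377 CPM in young and 303, 302 and 339 in old (-0.28 ± 0.06, adjusted p = 0.0136). All 3 had groups that did not overlap.

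The count moved with single libraries. Without old replicate 3, 27 members fell and 1 rose (8.61% of all genes passed). Without young replicate 1 or young replicate 2 there were 6 (4.62% and 3.67%), without old replicate 1 there were 7 (3.7%) and without old replicate 2 there were 9 (5.86%). The calls of Irf7, Oas1g, Trim30a and Usp18 held in all 13 other settings. Those of Parp9, Ifit1, Oas3, Ifi44 and Rnf213 each held in only 1 of 6 left-out fits, the one without old replicate 3. Of the 11 genes that fell and have a promoter window 5 held the response element core, and of the 20 others 11 did.

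Markers of other cells differed between the same libraries. T cell and intraepithelial lymphocyte markers summed to 35.5 to 52.9 CPM in young and 177 to 214 in old, and 10 of 12 rose (median log2 fold change 1.86). Myeloid markers summed to 36.1 to 58.3 CPM in young and 67.3 to 97.1 in old, 2 of 5 tested rose, and Adgre1 was at 0 in old. Most of these sums was Lyz2, at 47.8, 44.9 and 20.3 CPM in young and 55, 71.5 and 46.4 in old. Tuft cell markers summed to 117 to 145 CPM in young and 65.1 to 65.8 in old, and 4 of 4 tested fell. Enteroendocrine markers summed to 195 to 220 and 285 to 412 CPM (3 of 5 rose), and 3 of 6 Paneth cell markers fell. Goblet cell markers summed to 6366 to 7603 CPM in young and 8265 to 8567 in old, and of 6 tested 2 rose and 1 fell. Of the enterocyte markers 2 of 8 rose, and of the stem cell markers 1 of 6 fell. The part of these cells in the fall of the interferon genes was not tested.

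**Figure D5:**
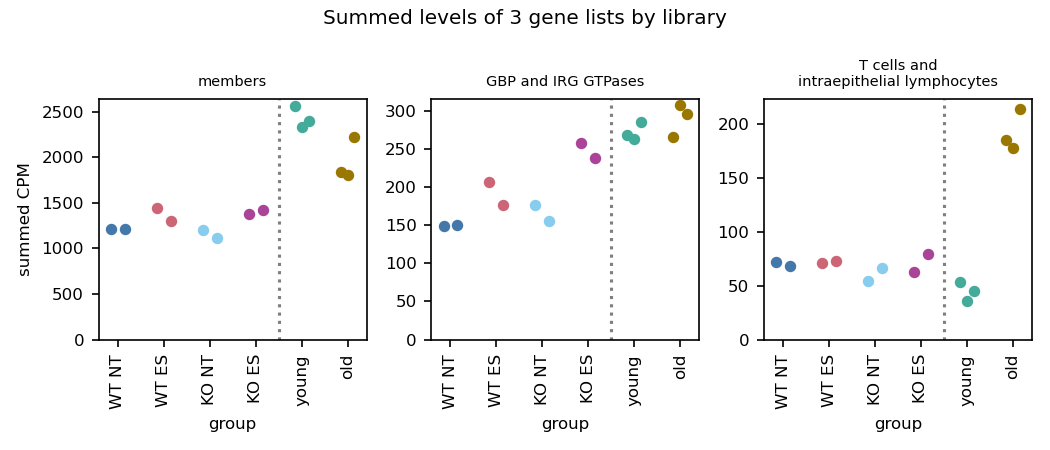
Points are libraries, and the vertical axis is the summed CPM of the 41 members (left), of 17 guanylate-binding and immunity-related GTPase genes (middle) and of 12 T cell and intraepithelial lymphocyte markers (right). Members summed to 2336 to 2568 CPM in young and 1808 to 2218 in old, and the lymphocyte markers to 35.5 to 52.9 and 177 to 214. Levels on either side of the dotted line come from separately scaled tables.

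Across the 2 experiments, which share no library, 30 of the 41 genes (73.2%) had a fold change above 0 with ES in WT and in KO and below 0 in old. Among the 16506 genes tested in both tables the share was 12%. With ES, 34 (82.9%) were above 0 in both WT and KO, against 26.6%, and 37 (90.2%) were below 0 in old, against 50.4%. These shares are descriptions, since genes of 1 pathway are not independent and the members were chosen with earlier results of these data known.

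The rest of the pathway was read from lists of its ligands, receptors, sensors and other targets. Of 12 interferon genes 7, among them Ifnb1 and Ifna4, were at 0 counts in all 14 libraries, and none passed the filter. Ifng, a type II interferon made by lymphocytes, had 4, 11 and 10 counts in old and 0 in every young library, which allows up to 3 counts per library. Of 15 receptor, kinase and regulator genes none passed with ES in WT, with ES in KO or with age (0 each). Between KO and WT, Ptpn6, a phosphatase that dampens cytokine receptors, was lower in NT (-0.61 ± 0.11, adjusted p = 0.011) and in ES (-0.51 ± 0.11, adjusted p = 0.019). The feedback inhibitor Socs3 was higher in KO NT (0.82 ± 0.13, adjusted p = 0.00551), and the interferon gamma receptor chain Ifngr2 was lower in KO ES (-0.29 ± 0.06, adjusted p = 0.0172).

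Of 18 sensors and adaptors, 1 rose with ES in WT (Tlr3, the endosomal sensor of double-stranded RNA, 0.42 ± 0.08, adjusted p = 0.0219). With ES in KO 1 rose, Nlrc5, the activator of MHC class I genes (0.87 ± 0.14, adjusted p = 0.0255). With age 3 rose and 0 fell, namely Nlrp9b (1.09 ± 0.26, adjusted p = 0.0267), Nlrc5 (0.56 ± 0.12, adjusted p = 0.0143) and the Toll-like receptor adaptor Myd88 (0.38 ± 0.08, adjusted p = 0.0116). KO against WT, Trim25 was lower in NT (-0.44 ± 0.07), and in ES Tlr3 was lower (-0.34 ± 0.08) and Nlrc5 higher (0.79 ± 0.14).

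Of the further interferon-stimulated genes that are not among the 41, 3 of 44 rose with ES in WT (Trim30d, Helz2 and Trafd1) and 1 of 44 with ES in KO (Ddx60), with medians of 0.19 and 0.16. With age 6 of 48 fell and 2 rose, and the median was -0.15. Ddx60, a helicase that aids RNA sensing, was at 48.6, 39.9 and 43.7 CPM in young and 21.2, 19.3 and 35.8 in old (-0.80 ± 0.18, adjusted p = 0.0233). Trim34a and Znfx1 also fell (-0.53 ± 0.12 and -0.36 ± 0.09). Ifitm3, a membrane protein that blocks virus entry, rose (0.24 ± 0.06, adjusted p = 0.0289).

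The guanylate-binding and immunity-related GTPases respond to interferon gamma as well as to type I interferon. Of 16 tested, 2 rose with ES in WT, and the median was 0.33. Igtp went from 12.4 and 12.3 to 23.3 and 18.6 CPM (0.77 ± 0.12, adjusted p = 0.0107), and Irgm2 also rose (0.76 ± 0.15). With ES in KO 4 rose, and the median was 0.74. Gbp3 went from 0.997 and 1.40 to 3.43 and 3.66 CPM (1.58 ± 0.25, adjusted p = 0.0256), and Gbp9, Tgtp2 and Igtp rose by 1.07, 0.99 and 0.79 on the log2 scale. In ES libraries 4 of these GTPases were higher in KO than in WT, and the median was 0.43, while the median of the 41 members there was 0.06. With age 2 rose and 1 fell, with a median of 0.12. Gbp8 was at 2.09, 1.56 and 1.71 CPM in young and 4.64, 3.87 and 4.85 in old (1.32 ± 0.22, adjusted p = 0.00385). Gbp3 was at 9.50, 7.79 and 9.07 CPM in young and 5, 5.22 and 5.78 in old (-0.72 ± 0.15, adjusted p = 0.012). Whether the GTPases differed from the 41 members was not tested.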

How the data were processed

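Per the labels' protocols, libraries of polyadenylated RNA from the sorted cells were strand-specific (TruSeq). The deposited tables hold raw counts per gene. The submitters' processing notes name mm10 and FastQC 0.11.2, and the aligner and counter were not given in the sources used here. Columns named Ctrl were read as NT. The labels do not say whether libraries came from separate animals, so the p-values reflect only the spread among these samples, which may be technical. The members and lists were chosen with earlier results of these data known.

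Each table was fitted separately with edgeR 4.0.16 (filterByExpr, TMM scaling, quasi-likelihood F test, 1 mean per group), with Benjamini-Hochberg adjustment over all genes tested and a threshold of 0.05. Log2 CPM used a prior count of 2. Named in full are members that passed in any of the 6 comparisons, the 3 highest per exon length, and, where none passed, the 3 with the smallest p. From each pathway list up to 4 passing genes per comparison could be named. SE is the log2 fold change divided by the root of F. Positions and exon lengths are from GENCODE M21 (GRCm38), and promoters from RefSeq. The fit was also run on simulated data, with changes planted only in genes above a set level, so it does not cover members at low counts. The planted changes were larger than the median changes of the members. Alternatives used limma 3.58.1, DESeq2 1.42.0, other scaling, filters and thresholds, and left-out libraries. 1 gene of the pathway lists is not reported here.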

Additional observations from a re-analysis of the deposited data

How the results depend on the processing

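None of the 28 fold changes of members that passed changed sign under any alternative run. The median of the 41 members stayed above 0 with ES in WT (0.21 to 0.33) and in KO (0.41 to 0.60) and below 0 with age (-0.56 to -0.30), but for KO against WT in ES it ran from -0.03 to 0.14. Over these calls, 273 repeats kept the call and 130 lost it. The 5 calls kept in every setting were Ifit1bl1 (KO against WT in ES) and Irf7, Oas1g, Trim30a and Usp18 (old against young). Counts of members passing moved more, and the share of all genes passing moved too. Without the count filter, which adds genes to the adjustment, they were 1 for ES in WT, 0 for ES in KO, 0 for KO against WT in NT, 1 in ES, and 6 for old against young. At a threshold of 0.01 they were 1, 0, 0, 1 and 5, and at 0.10 they were 9 for ES in KO and 4 for KO against WT in NT and in ES. At these thresholds the share of all genes is given only for ES in WT, so the other counts cannot be set against one. At 0.05 already 4.46% (NT) and 7.52% (ES) of all genes passed for KO against WT. For ES in WT 0.605% of all genes passed at 0.01 and 7.05% at 0.10, where 7 members did. DESeq2 gave 11 for ES in KO, 2 for KO against WT in NT and 1 for the difference of ES effects. limma-voom gave 3 for ES in KO, 0 for KO against WT in NT and 1 in ES, and the older quasi-likelihood form gave 3 for ES in KO. With only the compared groups fitted they were 10 for ES in WT, 1 for ES in KO and 0 for KO against WT in NT. The share of all genes was 11.4% (ES in WT), 0.143% and 3.56% with only the compared groups, and 0.386%, 0.0271%, 1.07%, 2.01% and 2.32% without the filter. DESeq2 called 1.3%, 5.39% and 1.22% of all genes, limma-voom 0.432%, 4.08% and 7.14%, and the older form 0.507%. The causes were not tested. With 1 library left out the counts ran from 0 to 7 for ES in WT and in KO, from 0 to 1 and from 1 to 2 for KO against WT in NT and in ES, stayed at 0 for the difference, and ran from 6 to 28 for old against young. A lone library left in a group is assumed to vary like the others.

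Deviations from the group means correlated weakly between samples with the same replicate number (-0.0083 to 0.1031). In the ageing experiment the values were 0.0045, 0.0837 and 0.0802. In the Chrm3 experiment, with 2 libraries a group, samples with unlike numbers give the same values with the sign turned. The correlations therefore cannot tell whether the numbers pair the samples. With the replicate block the counts were 9 for ES in KO and 24 for old against young (23 lower, 1 higher), with 1.19% and 12% of all genes. They were 5, 1, 2 and 0 for ES in WT, KO against WT in NT and in ES, and the difference. For ES in WT 5.59% of all genes passed with the block, and the shares for KO against WT and for the difference are not given here.

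Members at the lowest depth, such as Ifit3b (3 to 16 counts in the Chrm3 libraries) and Mx1 (8 to 41), can show only large changes. With n = 2 or 3, a p that misses the threshold does not show that levels were equal.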

Other observations

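Close relatives of members were read from the same fits after the members' values had been seen. Ifit1bl2, which shares sequence with Ifit1bl1, was at 0.825 and 0.369 CPM in KO ES against 1.19 and 2.25 in KO NT, and at 2.41 and 3.52 in WT ES against 1.35 and 0.974 in WT NT. KO against WT in ES was -2.32 ± 0.45 on the log2 scale (adjusted p = 0.0125), the same direction as for Ifit1bl1. The difference of the ES effects was -2.85 ± 0.63 (adjusted p = 0.14) and did not pass.

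Slfn4, a relative of Slfn2, was at 4.32 and 3.86 CPM in KO ES against 3.64 and 4.07 in KO NT, and at 1.56 and 1.95 in WT ES against 1.38 and 2.12 in WT NT. It was higher in KO than in WT in NT (1.14 ± 0.25, adjusted p = 0.0304) and in ES (1.23 ± 0.26, adjusted p = 0.0173). Its ES libraries overlapped with its NT libraries in WT and in KO. Slfn2 did not pass in either of those comparisons (-0.35 ± 0.22 and 0.54 ± 0.18).

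Oas1b was at 4.81, 5.66 and 5.01 CPM in young and 3.38, 2.74 and 4.91 in old (-0.50 ± 0.22, adjusted p = 0.208) and did not pass. Old 3 lay within the young range.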
